A study of Solanum lycopersicum with 6 samples.

Results

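miR319 is the plant microRNA (miRNA) family that guides cleavage of mRNAs for TCP transcription factors of the CINCINNATA type. It was taken here as every entry of the deposited tomato miRNA table with miR319 in its name, whatever letter or arm follows and with or without a count. This gave 5 of the 137 entries, namely miR319a, miR319b, miR319c-3p, miR319c-5p and miR319d. Of these, 4 held a count in at least 1 library, and 3 (miR319a, miR319b and miR319c-3p) held enough counts to be tested.

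The table counts small RNA of tomato (Solanum lycopersicum) fruit at the green stage, in 3 libraries from drought-stressed plants and 3 from control plants, called drought 1 to 3 and control 1 to 3 after the replicate numbers in the labels. After flowering, drought pots were given liquid fertilizer at a 500-fold dilution on a weekly basis, whereas control pots alternated between the same fertilizer and water day by day. All plants grew in a greenhouse with a 12 h day at 25 °C and a night at 20 °C, and the labels name no cultivar or genotype. Drought pots were thus given less fertilizer as well as less water, and the effects of these cannot be told apart. Whether replicate libraries stem from separate plants is not stated, so the spread behind each p-value is that between libraries and may be technical.

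TCP factors of this class slow cell division at the margins of growing organs and promote their maturation, and miR319 limits where and how long they act. In tomato the best known target is LANCEOLATE, in which mutations of the miR319 site turn the compound leaf into a simple one. In Arabidopsis the same control shapes leaves, petals and the timing of senescence, and higher miR319 in creeping bentgrass is known to alter tolerance of drought and salt. A miRNA precursor is cut into a duplex with a 5p and a 3p arm, and the miRNA that guides cleavage in the miR319 family lies on the 3p arm. The family is close in sequence to miR159, which acts mainly on GAMYB-like transcription factors.

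In fruit of drought-stressed plants no member of the family passed the test. With scaled library sizes, miR319a had lower values in all 3 drought libraries than in any control library. Groups without overlap were found for 37.4% of all tested entries, and as unscaled shares of the counts the groups of miR319a overlapped. miR319b and miR319c-3p had somewhat higher means in drought with overlapping groups, and the family sums overlapped. Of the 3 tested members 0 passed the threshold (adjusted p under 0.05 in edgeR's quasi-likelihood test, adjusted by Benjamini-Hochberg), against 20 of all 99 tested entries, or 20.2%. The number with an unadjusted p under 0.05 was 1 of 3 members, against 34.3% of all tested entries. By DESeq2 the count of members that passed was also 0, against 26 of 99 entries (26.3%), and miR319a had a DESeq2 adjusted p of 0.0593. The median log2 fold change of the 3 members was 0.38, beside 0.16 over all tested entries. Levels are given as counts per 1e+06 (CPM) of library sizes scaled by the trimmed mean of M-values (TMM), and fold changes are drought over control.

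miR319a held 174, 629 and 307 counts in drought 1 to 3, against 1252, 692 and 1058 in control 1 to 3. After scaling these were 463, 993 and 718 CPM in the drought libraries and 2082, 1071 and 1466 CPM in the control libraries. All 3 drought values thus lay below all 3 control values, but drought 2 and control 2 lay close to each other. Such a separation of the groups was found for 37 of the 99 tested entries (37.4%), so it is common in this table. miR319a averaged 725 ± 265 CPM in drought fruit and 1540 ± 510 CPM in control fruit (SD, n = 3 each). Its log2 fold change was -1.09 ± 0.42 (SE), with a 95% interval of -2.01 to -0.16, which is 2.12-fold lower in drought. It did not pass in the edgeR quasi-likelihood test (unadjusted p = 0.0262, adjusted p = 0.0928), where it stood 27th of the 99 entries by p.

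Among the settings tried here, the call on miR319a changed only in the fit without drought 2, and the cause was not tested. Drought 2 was the drought library with the most miR319a and also the one that scaling changed most. Its TMM factor was 1.35, against 0.848 and 0.993 in drought 1 and 3 and 0.909 to 1.0 in control. Without drought replicate 2, miR319a fell, with a log2 fold change of -1.54 and an edgeR adjusted p of 0.00453, in a fit that called 41 of 101 entries in place of 20 of 99. As a plain share of the listed counts, with no scaling, miR319a took 0.0393%, 0.134% and 0.0713% in drought 1 to 3 and 0.189%, 0.107% and 0.141% in control 1 to 3, so that drought 2 lay above control 2. The authors' deposited table, whose test the header does not name, gives miR319a a log2 fold change of -0.99 and an FDR-adjusted p of 0.0449. In the authors' deposited table this adjusted p is under 0.05 for 32 of 129 entries (24.8%), and miR319a is the 32nd by p.

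**Figure D1:**
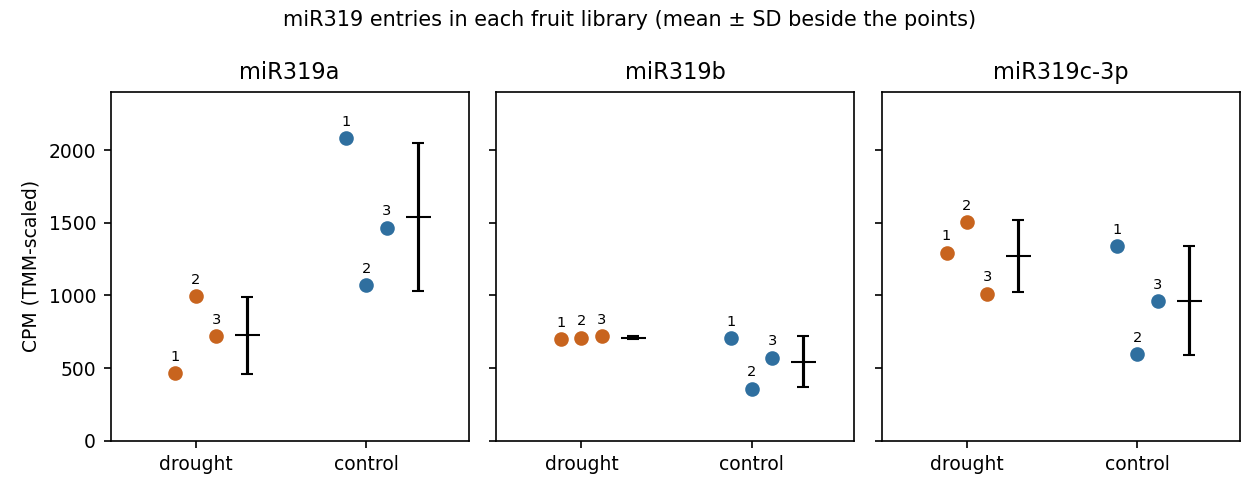
TMM-scaled CPM (vertical axis, linear) of miR319a, miR319b and miR319c-3p in the drought and control libraries, with points numbered by replicate and the mean ± SD (n = 3) beside them. miR319a runs from 463 to 993 in drought and from 1071 to 2082 in control, whereas the groups overlap for the other members.

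**Figure D2:**
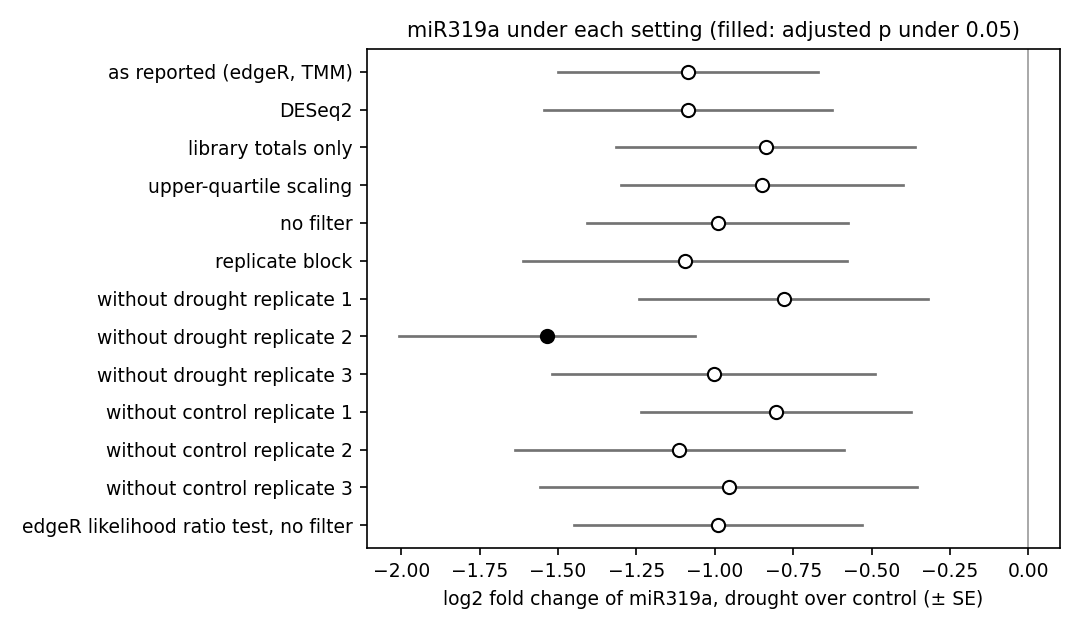
Log2 fold change of miR319a, drought over control, ± SE (horizontal axis) in the reported fit and 12 other settings, with filled points for an adjusted p under 0.05. All 13 estimates are below 0, from -1.54 to -0.78, and the fit without drought replicate 2 is the filled one.

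miR319b held 262, 449 and 307 counts in drought 1 to 3, against 423, 231 and 411 in control 1 to 3. After scaling it stood at 698, 709 and 718 CPM in the drought libraries and at 703, 357 and 570 CPM in the control libraries. The drought values were nearly level, the control values were spread, and the groups overlapped through control 1. The means were 708 ± 10.1 CPM in drought and 543 ± 175 CPM in control (SD, n = 3 each). The log2 fold change was 0.38 ± 0.37 (SE), with a 95% interval of -0.43 to 1.20 (edgeR adjusted p = 0.455).

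miR319c-3p, the guide arm of its precursor, held 486, 953 and 432 counts in drought 1 to 3, against 805, 384 and 693 in control 1 to 3. After scaling it stood at 1294, 1505 and 1010 CPM in the drought libraries and at 1339, 594 and 960 CPM in the control libraries. The groups overlapped, and control 2 was the lowest of the 6 libraries, as it was for miR319b. The means were 1270 ± 248 CPM in drought and 964 ± 372 CPM in control (SD, n = 3 each). The log2 fold change was 0.40 ± 0.39 (SE), with a 95% interval of -0.48 to 1.28 (edgeR adjusted p = 0.464). The intervals of miR319b and miR319c-3p thus leave room for a rise of about the size of the difference seen for miR319a, and for a smaller fall.

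The passenger arm miR319c-5p was at the limit of detection. It held 2, 1 and 1 counts in drought 1 to 3 and 0, 1 and 1 counts in control 1 to 3, too few to be tested. Summed, it held 4 counts in drought and 2 in control, a ratio of 2.74 after scaling, with an exact 95% Poisson interval of 0.393 to 30.3 that covers counting error only. Of all counts of the miR319c precursor, the 5p arm took 0.213% in drought (4 of 1875; exact Clopper-Pearson 95% interval 0.0582% to 0.545%) and 0.106% in control (2 of 1884; 0.0129% to 0.383%). No difference in arm use was detectable at this depth. Among the 32 precursors with both arms listed, the less abundant arm took a median of 10.9% of the counts over all 6 libraries, and 0.160% for miR319c, which was the 3rd lowest.

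miR319d was recorded at 0 counts in all 6 libraries. A count of 0 allows up to 3 counts at 95% on the upper side alone. By the exact two-sided 95% Poisson interval it allows up to 3.69. The limit of 3 is 6.40 to 6.96 CPM of the unscaled total in drought libraries and 4.0 to 4.66 CPM in control libraries. Over the 3397763 counts of all libraries together it is 0.883 CPM. Relative to the 9954 counts of the whole family, the limit of 3 counts is 0.0301%. These limits hold only if reads of miR319d were not given to another entry, which was not tested. In the RefSeq gene table of assembly SLM_r2.1, precursor genes were matched by name for 3 of the 4 family members, MIR319b, MIR319c and MIR319d, with annotated lengths of 292, 195 and 188 bases. MIR319d is thus an annotated locus for whose mature miRNA no count was recorded in green fruit.

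Summed over its entries, the family held 924, 2032 and 1047 counts in drought 1 to 3 and 2480, 1308 and 2163 counts in control 1 to 3. On the scale of a table summed by family, this was 2268, 3076 and 2659 CPM in the drought libraries and 4075, 2092 and 3056 CPM in the control libraries. The groups overlapped widely, with drought 2 above control 2 and 3. The means were 2668 ± 404 CPM in drought and 3074 ± 992 CPM in control (SD, n = 3 each). The log2 fold change of the sum was -0.20 ± 0.37 (SE), with a 95% interval of -0.93 to 0.52 (edgeR adjusted p = 0.733), and it turned positive with library totals alone (0.03) and with upper-quartile scaling (0.24). These scalings also raised the median of all tested families, and relative to that median the sum stood at -0.18 with TMM, -0.10 with totals and -0.28 with upper quartiles. Of the 52 families tested, 16 (30.8%) passed. As a share of all listed counts the family took 0.295% ± 0.121 in drought and 0.289% ± 0.0859 in control (SD, n = 3 each). By an exact two-sided permutation test, which cannot go below 0.1 with 3 against 3, p was 0.9.

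The shares of the family counts held by miR319a, miR319b and miR319c-3p did not overlap between the groups. By the exact two-sided permutation test p was 0.1 for each, the smallest that 3 libraries against 3 allow. The shares of a library add up to the whole, so a lower share of 1 member raises the others and these are not separate observations. How often such shares separate the groups in other families was not computed. Ratios between 2 entries of the same family, the nearest measure at hand, did so for 32 of 87 pairs (36.8%), so such a separation is common here. miR319a took 18.8%, 31.0% and 29.3% of the family counts in drought 1 to 3, against 50.5%, 52.9% and 48.9% in control 1 to 3. The exact binomial 95% intervals of these shares ran from 16.4% to 33.0% over the drought libraries and from 46.8% to 55.6% over the control libraries, counting error only. miR319c-3p took 52.6%, 46.9% and 41.3% in drought 1 to 3 and 32.5%, 29.4% and 32.0% in control 1 to 3. miR319b took 28.4%, 22.1% and 29.3% in drought 1 to 3 and 17.1%, 17.7% and 19.0% in control 1 to 3. In listed counts miR319c-3p was thus the leading member in every drought library, and miR319a in every control library. The order below the leader was not stable in drought: miR319b stood above miR319a in drought 1 and below it in drought 2, and each held 307 counts in drought 3. In all 3 control libraries the order was miR319a, miR319c-3p, miR319b. Adapter ligation favours some miRNA ends over others, so counts of different members within a library do not measure their relative amounts. The assignment of reads that match several members is not given in the sources used, and its part in these shares was not tested.

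**Figure D3:**
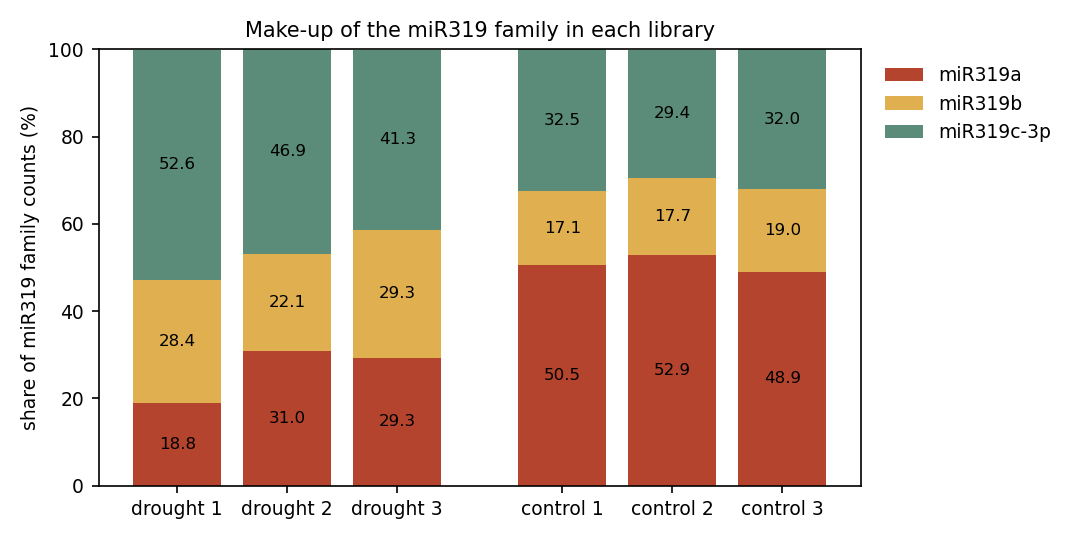
Share of the miR319 family counts (vertical axis, percent) held by miR319a, miR319b and miR319c-3p in each drought and control library. miR319c-5p, under 0.3% in each library, is too thin to be drawn. miR319a takes 18.8% to 31.0% in the drought libraries and 48.9% to 52.9% in the control libraries.

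Ratios between members within a library are free of library scaling. The ratio of miR319a to miR319b was 0.665, 1.40 and 1.0 in drought 1 to 3 and 2.96, 2.99 and 2.57 in control 1 to 3. All drought ratios lay below all control ratios, and the mean log2 ratio was -0.03 ± 0.54 in drought and 1.50 ± 0.12 in control (SD, n = 3 each), a difference of -1.54, or 2.90-fold. The ratio of miR319a to miR319c-3p was 0.359, 0.660 and 0.711 in drought 1 to 3 and 1.55, 1.80 and 1.53 in control 1 to 3. Here too the groups did not overlap, and the mean log2 ratio was -0.86 ± 0.54 in drought and 0.70 ± 0.13 in control, a difference of -1.56. The ratio of miR319b to miR319c-3p was 0.540, 0.471 and 0.711 in drought 1 to 3 and 0.526, 0.602 and 0.593 in control 1 to 3. These overlapped, with mean log2 ratios of -0.82 ± 0.30 in drought and -0.80 ± 0.11 in control, a difference of -0.02 that ran from -0.35 to 0.44 over single pairs of a drought and a control library.

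Over the 3 pairs of members, the exact two-sided permutation p was 0.1 for both pairs with miR319a, the smallest that 3 libraries against 3 allow (Benjamini-Hochberg adjusted over the 3 pairs, 0.15), and 1 for miR319b over miR319c-3p. This exact test therefore cannot pass 0.05 on such a ratio. Without single libraries the differences with miR319a ran from -1.80 to -1.26 over miR319b and from -1.74 to -1.24 over miR319c-3p. Ratios whose groups do not overlap were found for 32 of the 87 pairs of tested entries that share a family number (36.8%). By the size of the difference the pairs with miR319a were the 23rd and 24th of the 87, whose median size was 0.68, and miR319b over miR319c-3p was the 86th. Pairs of a family share members: the 24 pairs with the largest differences came from 7 of the 25 families, 11 of them from miR171, and the 32 pairs without overlap from 9 families. No source used here says how reads that match several members were assigned, and its part in these ratios was not tested.

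**Figure D4:**
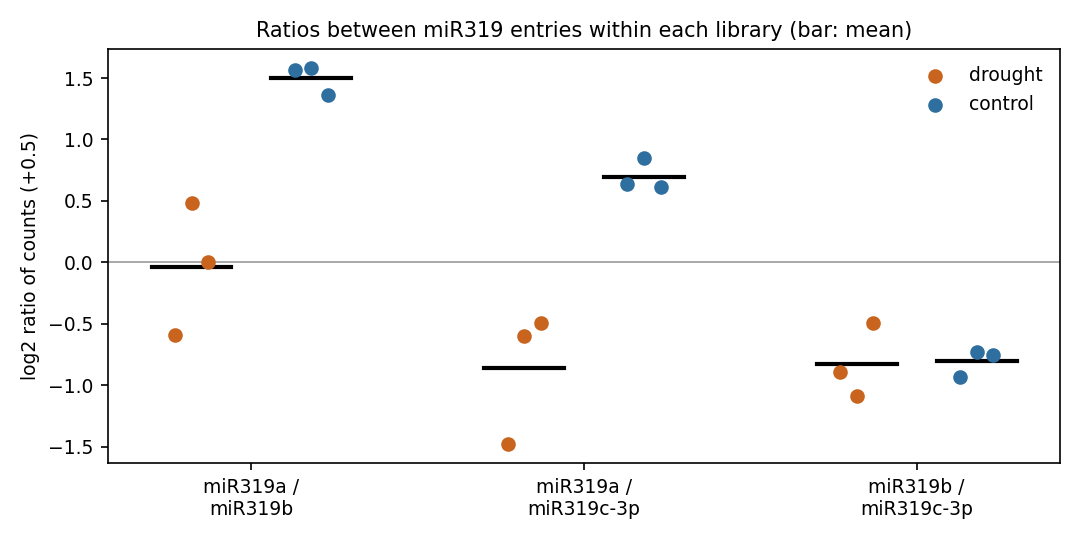
Log2 ratio of counts between miR319 members within each library (vertical axis; 0.5 added to each count), with drought and control libraries side by side and a bar at each group's mean. Both ratios with miR319a are lower in all drought libraries, by 1.54 and 1.56 at the mean, and the ratio of miR319b to miR319c-3p overlaps between the groups.

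Other miRNAs tied to this pathway were taken from a list of miR159, the relative of miR319 that acts on GAMYB-like genes, and of miR164 and miR396, whose genes TCP factors are known to activate in Arabidopsis. Of its 8 entries 7 were tested, and 3 fell, 0 rose and 4 did not pass (edgeR adjusted p under 0.05; 11.1% of all tested entries fell and 9.09% rose). The falls were those of miR159b, with a log2 fold change of -2.32 ± 0.49 (SE), and of both arms of miR164a, which acts on NAC-domain genes, with -2.75 ± 0.36 for miR164a-5p and -3.13 ± 0.46 for miR164a-3p. miR159 stood at -0.03 ± 0.32, and the abundant miR396 entries, which act on growth-regulating factors, at -0.44 ± 0.35 for miR396b and -0.50 ± 0.29 for miR396a-5p. The other arm of the miR396a precursor, miR396a-3p, named here after its values were seen, stood on the other side at 1.24 ± 0.60 (edgeR adjusted p = 0.183). The median over the 7 was -0.50, beside 0.16 over all tested entries. The list was chosen with earlier results of these data known, so its counts and median are a description only. Both miR164a entries come from the same precursor.

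**Figure D5:**
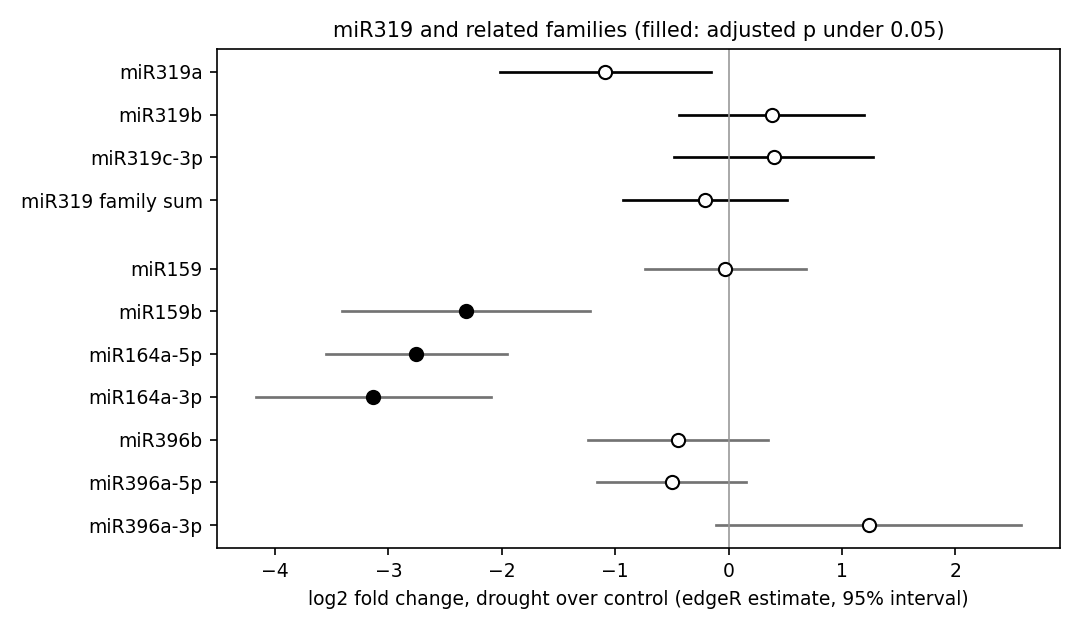
Log2 fold change, drought over control, with its 95% interval (horizontal axis), for the 3 tested miR319 entries, the family sum and the 7 tested entries of miR159, miR164 and miR396. Filled points passed an adjusted p of 0.05 in edgeR: none of the miR319 rows did, and miR159b, miR164a-5p and miR164a-3p lie to the left of them.

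By mean CPM over the 6 libraries miR319a was the most abundant member (1132 CPM, 39th of the 137 entries), just ahead of miR319c-3p (1117 CPM, 40th), a gap far smaller than the spread between libraries. This pools groups in which the order differs, since the mean of miR319c-3p is the higher one in drought and that of miR319a in control. The 5 tested entries of other families most like miR319a, by Pearson's r of log2 CPM over the 6 libraries, were miR10537 (0.96), miR9470-3p (0.94), miR477-5p (0.93), miR159b (0.91) and miR167b-3p (0.90). The least like was miR166c-3p (-0.89). These values describe 6 libraries that share their scaling and fall into 2 groups, so entries with a difference between the groups in the same direction are alike by construction.

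The libraries held 430732 to 468711 listed miRNA counts in drought and 644434 to 749332 in control. These are sums over the listed entries, and the read total of each library is not known. At this depth the counting error of miR319a was 3.99% to 7.58% of the count in the drought libraries and 2.83% to 3.80% in the control libraries, small beside the spread between libraries, whose biological coefficient of variation was 0.373 for miR319a and 0.372 at the median of all tested entries. In whole fruit, fewer cells that make a miRNA and less of it per cell cannot be told apart.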

How the data were processed

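Per the labels' protocols, 240 ng of total RNA from green fruit went into libraries of the NEBNext Multiplex Small RNA kit. The authors deposited 1 table of 137 mature tomato miRNAs with the total count per sample, which is a whole-number count with no normalization. Per the file headers it also holds the authors' CPM, log2 fold changes and p-values, used here only where named; the deposited CPM equals the count over the total times an unfiltered TMM factor. Aligner, mismatch setting and miRNA database are not given in the sources used. Names were stripped of the prefix sly-.

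The test was edgeR's (version 4.0.16, R 4.3.3; glmQLFit and glmQLFTest, robust, TMM, group as the only term). filterByExpr (minimum count 10, minimum total 15) kept 99 entries, which held 99.98% of the counts. P-values were adjusted by Benjamini-Hochberg over all tested entries. The standard error is the log2 fold change over the square root of F. Families were summed by the number after miR and tested likewise in a fit of their own. For a given standard error that fit gave the miR319 sum a narrower interval than the entries' fit gave the members. The shares of families and of entries that passed are thus not comparable. Ratios between members used counts plus 0.5, and shares and ratios were compared by exact permutation over all 20 assignments. Without molecular identifiers, the exact Poisson and binomial intervals and the detection limits cover counting error only. The intervals of the log2 fold changes come from the edgeR fit and include the spread between libraries. The fit was tested on simulated data, where it missed most of the 2-fold changes, so a change of that size can go uncalled. Alternatives included DESeq2 1.42.0, other scalings, no filter and leaving out each library. The members, the list of related families and the naming rule (all members, list entries that passed, the 2 most abundant tested entries per listed family, and the 5 entries most like and the 1 least like the most abundant member) were chosen with earlier results of these data known. No 2 libraries agreed within sampling noise (chi-square per degree of freedom of 50.1 or more over entries with at least 20 counts in a pair).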

Additional observations from a re-analysis of the deposited data

How the results depend on the processing

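Under the other settings miR319a kept a negative log2 fold change in 12 of 12, with 1 of them passing, and ran from -1.54 to -0.78 without single libraries (edgeR or DESeq2 adjusted p from 0.00453 to 0.336 over all 12); the cause of its pass without drought replicate 2 was not tested. miR319b and miR319c-3p stayed positive and did not pass in any of the 12. The number of members passing was 0 to 1 without single libraries. The family sum turned positive with library totals alone (0.031) and upper-quartile scaling (0.24) and ran from -0.50 to 0.052 without single libraries. These scalings moved the median of all tested entries to 0.27 and 0.40, against 0.16 with TMM; relative to that median miR319a stood at -1.24 with TMM, -1.11 with totals and -1.25 with upper quartiles, and the family sum, relative to the median of families, at -0.18, -0.10 and -0.28, with no change of sign. They also changed the split of calls, 9 higher and 11 lower with TMM, to 16 and 11 with totals and 16 and 10 with upper quartiles. The difference of the family's share of counts ran from -0.0630 to 0.0495 percentage points, and that of the miR319b to miR319c-3p log2 ratio from -0.18 to 0.11, without single libraries. Entries passing over the whole table numbered 9 to 41 without single libraries and 12 with the replicate block. Deviations of drought and control libraries with the same replicate number correlated at 0.10, -0.24 and 0.01. Of the 3 drought libraries, 1 correlated best with the control library of its own number. So few values cannot decide whether the replicate numbers pair the libraries. With the block the log2 fold change was -1.10 for miR319a (edgeR adjusted p = 0.214) and -0.16 for the family sum, and the block changed no call on a member. An edgeR likelihood ratio test without a filter, chosen after seeing the data, gave miR319a an adjusted p of 0.110. Entries under about 10 counts, such as miR319c-5p, are below what this depth can compare.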
